A study of Arabidopsis thaliana with 18 samples.

Results

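XTH18 (AT4G30280), XTH19 (AT4G30290) and XTH20 (AT5G48070) are 3 closely related genes of the xyloglucan endotransglucosylase/hydrolase (XTH) family of Arabidopsis thaliana. They were chosen by name, with their responses to TOLS2 in these data known. Probe sets annotated with exactly 1 of these genes were used, and each gene had 1 such probe set. They are 3 of the 16542 genes with a 1-gene probe set on the array. RNA was measured in root tips of about 1 cm, some 80 per sample, from seedlings grown for 5 days under continuous light. The seedlings had been moved for 3 h to medium without peptide (control) or with 1 µM TOLS2, a small secreted peptide of the root. The 3 genotypes were wild type, rlk7-3, a mutant of the receptor kinase gene RLK7, and puchi-2, a mutant of PUCHI, an AP2/ERF transcription factor gene of lateral root formation. Each of the 6 combinations had 3 arrays, which the labels call biological replicates, and no further allele, transgene or treatment is given for any group.

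XTH enzymes act in the cell wall on xyloglucan, the hemicellulose that coats and tethers cellulose microfibrils. They cut a xyloglucan chain and join the new end to another chain, or to water, and so remodel the wall while cells grow, divide or differentiate. XTH17, XTH18, XTH19 and XTH20 form a subgroup of the family known for expression in roots, where reporter lines have placed them in partly different cell files and zones, with XTH20 in vascular tissue. XTH19 and XTH20 are also known from the rejoining of cut flowering stems, in which they act in the division of pith cells. XTH18 and XTH19 are neighbours on chromosome 4, next to XTH24, whereas XTH20 lies on chromosome 5 (RefSeq gene order, TAIR10.1). XTH17 and XTH24 were not analysed here.

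All values are log2 levels from RMA, which the authors applied before deposit, and a difference of 1 on this scale is a doubling of the signal. A level of one probe set is not set against that of another, since probes differ in brightness, and only differences between arrays are compared. A change is called at a limma adjusted p under 0.05 (Benjamini-Hochberg over 17481 probe sets, two-sided). Correlations between arrays were at least 0.988 and array medians ran from 6.19 to 6.30. The genotype labels could be checked in part only. PUCHI stood at 4.56 ± 0.37 in wild-type control and 5.31 ± 0.23 in puchi-2 control (log2, SD, n = 3), so its signal was not lower on the puchi-2 controls. With TOLS2 it stood at 6.52 ± 0.07 in wild type and 6.25 ± 0.09 in puchi-2, a difference that was not called (−0.27, limma adjusted p = 0.659). On rlk7-3 arrays it stood at 4.27 ± 0.10 in control and 4.43 ± 0.15 with TOLS2. No gene with a 1-gene probe set had RLK7 as its current name. Other names of RLK7 and several-gene probe sets were not searched for it, so its signal was not checked. The sources used here give neither the part of PUCHI that its probes read nor the lesion of puchi-2, so this signal does not test the label.

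Without peptide, the 3 genes had similar levels in the 3 genotypes. XTH18 read 4.97, 4.98 and 5.02 on the wild-type control arrays, 5.01, 4.75 and 5.01 in rlk7-3, and 5.53, 5.34 and 4.46 in puchi-2. The puchi-2 arrays spread most and lie on both sides of those of wild type. XTH19 read 7.32, 7.29 and 7.28 in wild type, 7.41, 7.35 and 7.17 in rlk7-3, and 7.43, 7.39 and 7.27 in puchi-2. These 9 values lie close together and the groups overlap. XTH20 read 3.57, 3.12 and 3.21 in wild type, 3.66, 2.94 and 3.32 in rlk7-3, and 3.31, 3.60 and 3.56 in puchi-2, again with overlap. In order of group means, rlk7-3 was lowest and puchi-2 highest for XTH18 (4.92, 4.99 and 5.11 for rlk7-3, wild type and puchi-2), and wild type was lowest and puchi-2 highest for XTH19 (7.30, 7.31 and 7.36 for wild type, rlk7-3 and puchi-2) and XTH20 (3.30, 3.31 and 3.49 in the same order). None of these neighbours differed beyond the spread of its arrays.

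Against wild type, the rlk7-3 controls differed by −0.07 for XTH18 (95% interval −0.57 to 0.44), 0.01 for XTH19 (−0.20 to 0.22) and 0.01 for XTH20 (−0.81 to 0.83). The puchi-2 controls differed by 0.12 for XTH18 (−0.38 to 0.62), 0.06 for XTH19 (−0.15 to 0.28) and 0.19 for XTH20 (−0.63 to 1.02). None of the 3 was called in either comparison (limma adjusted p from 0.957 to 0.998), where 0.0515% of all probe sets were called for rlk7-3 and 0.0172% for puchi-2. The intervals of XTH20 were the widest of the 3. They use the spread of all groups, and its SD was 0.16 to 0.36 in the control groups and 0.56 to 0.84 with TOLS2.

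**Figure D1:**
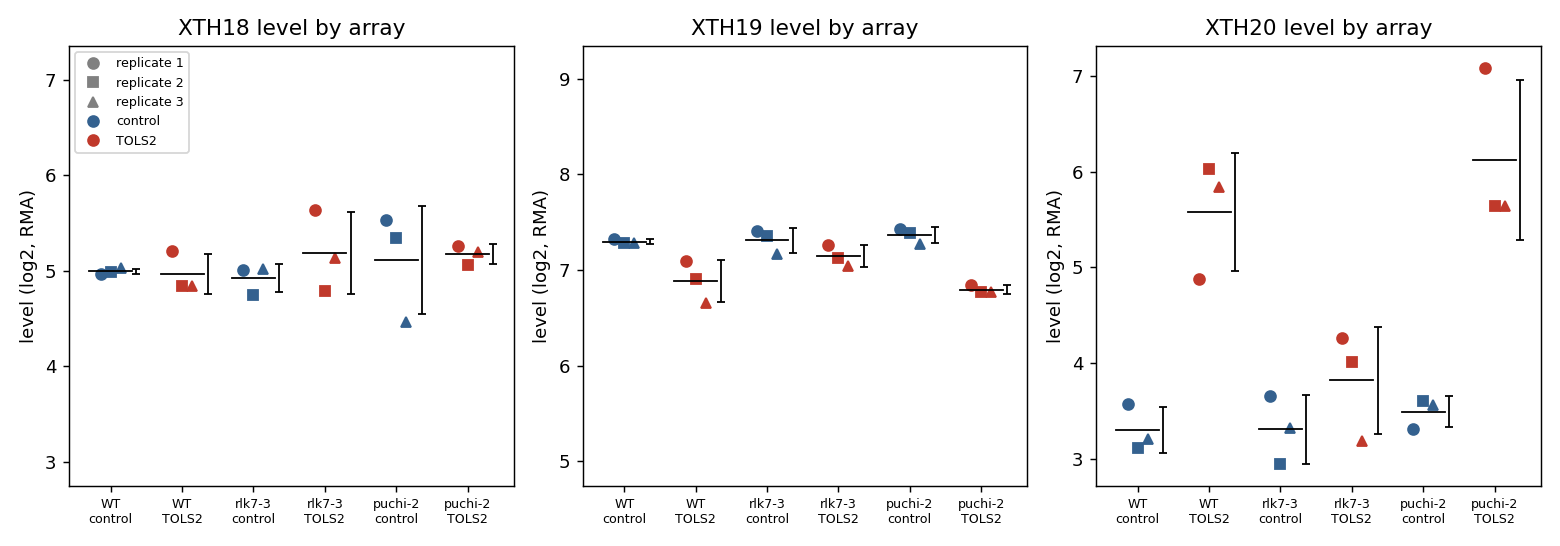
Level of XTH18, XTH19 and XTH20 (log2, RMA) on each of the 18 arrays, by genotype and treatment. Symbols are replicates, blue is control and red is TOLS2, horizontal lines are group means and bars are 1 SD over 3 arrays, and each panel spans the same range of log2 units. XTH20 with TOLS2 lies above all its controls in wild type (4.87 to 6.03) and puchi-2 (5.64 to 7.09), XTH19 with TOLS2 lies below its controls in the same 2 genotypes, and XTH18 groups overlap.

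In wild type, TOLS2 raised XTH20, lowered XTH19 by a small amount and left no called change in XTH18. XTH20 read 4.87, 6.03 and 5.84 with TOLS2, against 3.57, 3.12 and 3.21 in control. All 3 treated arrays lie above all 3 controls, with replicate 1 the lowest of the treated. The change was 2.28 (SE 0.38, n = 3, limma adjusted p = 0.00466), a 4.87-fold rise with a 95% interval from 2.75-fold to 8.60-fold. It ranked 11 among the rises of all 17481 probe sets. The deposited values carry no detection measure, so whether the XTH20 control signal was above background was not tested, and the folds are those of the signals.

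XTH19 read 7.09, 6.91 and 6.66 with TOLS2 in wild type, against 7.32, 7.29 and 7.28 in control. The treated arrays lie below the controls without overlap. The change was −0.41 (SE 0.10, n = 3, limma adjusted p = 0.0471, 95% interval −0.62 to −0.20), a fall of the signal to 0.751 of its control level. XTH18 read 5.21, 4.85 and 4.84 with TOLS2, on both sides of its controls, and changed by −0.03 (95% interval −0.53 to 0.48, limma adjusted p = 0.981). Across all probe sets, 1.15% were called higher and 0.686% lower in wild type, and the groups did not overlap in 18.7%, so the absence of overlap alone was common. The median change of all probe sets was −0.04.

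The wild-type calls differ in how firmly they stand. That of XTH20 held without any 1 of the 6 wild-type arrays (changes from 2.06 to 2.64, limma adjusted p up to 0.0341). It was lost when a whole replicate number was taken from all groups, for replicate 2 (change 1.97, adjusted p = 0.292) and replicate 3 (2.11, 0.183). That of XTH19 was lost without control replicate 1 (adjusted p = 0.139), 2 (0.137) or 3 (0.124) and without TOLS2 replicate 2 (0.125) or 3 (0.198), with changes from −0.42 to −0.30, and held only without TOLS2 replicate 1 (−0.52, 0.0142). The root tips were measured in bulk, so fewer cells of a type and less RNA per cell cannot be told apart. Rubisco activase gene RCA, the only measured gene of 14 shoot and photosynthesis markers, fell with TOLS2 in wild type from 7.95 ± 0.16 to 7.30 ± 0.15 (SD, n = 3, change −0.65, limma adjusted p = 0.0355), a call that was lost without any 1 wild-type array (limma adjusted p from 0.0531 to 0.162). Its changes were 0.03 in rlk7-3 and −0.51 in puchi-2 (limma adjusted p = 0.978 and 0.117). BBM, a root stem cell transcription factor gene and the only measured gene of 27 root markers, changed by −0.12 in wild type (limma adjusted p = 0.85), so the tissue label could hardly be checked by markers. The part of either in the XTH changes was not tested.

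In rlk7-3, none of the 3 genes was called with TOLS2. XTH20 read 4.26, 4.01 and 3.19 with TOLS2, against 3.66, 2.94 and 3.32 in control. Replicates 1 and 2 lie above all controls and replicate 3 lies among them. The change was 0.51 (SE 0.38, n = 3, limma adjusted p = 0.809), with a 95% interval from −0.31 to 1.33 that includes both no change and a rise of 2.52-fold. XTH19 read 7.27, 7.13 and 7.04 with TOLS2, against 7.41, 7.35 and 7.17. The groups overlap, though each TOLS2 array lay below the control array of its number. XTH19 changed by −0.17 (95% interval −0.38 to 0.05, limma adjusted p = 0.772). XTH18 read 5.64, 4.78 and 5.13, overlapping its controls, and changed by 0.26 (−0.24 to 0.76, limma adjusted p = 0.847). In this comparison 0.00572% of all probe sets were called, groups did not overlap in 12.2%, and the median change was 0.06. The estimates for XTH19 and XTH20 had the sign of those in wild type, and both intervals include 0.

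On puchi-2 arrays, XTH20 and XTH19 moved as in wild type. XTH20 read 7.09, 5.64 and 5.64 with TOLS2, against 3.31, 3.60 and 3.56 in control. There is no overlap, and replicate 1 stands well above the other treated arrays. The change was 2.63 (SE 0.38, n = 3, limma adjusted p = 0.0019), a 6.19-fold rise with a 95% interval from 3.50-fold to 10.9-fold, and it ranked 8 among all rises. Without TOLS2 replicate 1 it was 2.15 (limma adjusted p = 0.00637).

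XTH19 read 6.85, 6.77 and 6.77 with TOLS2 on puchi-2 arrays, against 7.43, 7.39 and 7.27, and the groups do not overlap. The change was −0.57 (SE 0.10, n = 3, limma adjusted p = 0.00808, 95% interval −0.78 to −0.36), a signal at 0.675 of control. The calls of both genes held without any 1 of the 6 puchi-2 arrays (limma adjusted p up to 0.0477 for XTH19 and 0.0141 for XTH20). They were lost in the 6 puchi-2 arrays alone (limma adjusted p = 0.0611 and 0.0721). XTH18 read 5.26, 5.06 and 5.20, within the range of its controls, and changed by 0.06 (−0.44 to 0.56, limma adjusted p = 0.963). This value turned to −0.26 without control replicate 3, whose reading of 4.46 is the lowest of all 18 arrays (limma adjusted p = 0.684). Across all probe sets 0.898% were called higher and 0.698% lower, and 17.2% did not overlap.

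**Figure D2:**
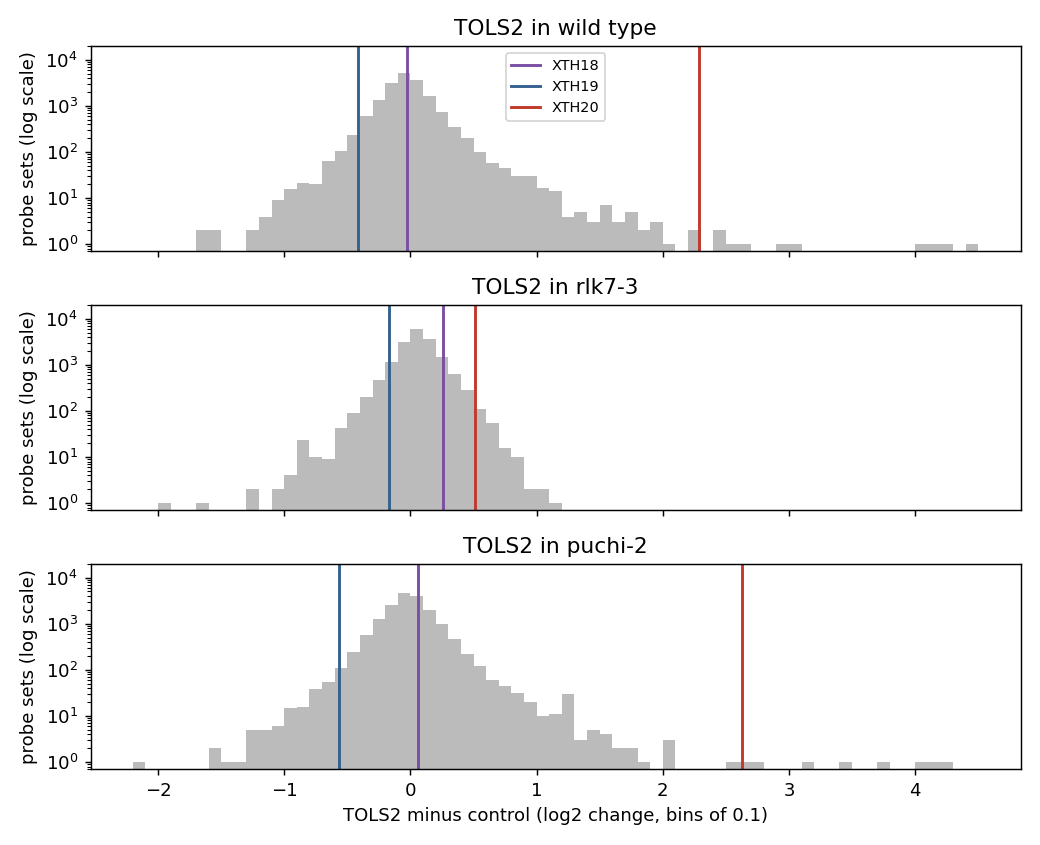
Number of probe sets (log axis) by their change with TOLS2 (log2, bins of 0.1) in each genotype, with vertical lines at the changes of XTH18, XTH19 and XTH20. XTH20 lies in the far upper tail in wild type (2.28) and puchi-2 (2.63), and in rlk7-3 its change of 0.51 is at percentile 99.0. XTH18 lies nearer the middle in wild type and puchi-2, and XTH19 lies to the left of 0 in all 3 genotypes.

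The responses of the genotypes were then compared directly. The rlk7-3 response of XTH20 was smaller than that of wild type (difference −1.77 on the log2 scale, SE 0.54, 95% interval −2.93 to −0.61), but this was not called (limma adjusted p = 0.243). The level with TOLS2 was called: XTH20 was lower in rlk7-3 than in wild type (difference −1.76, SE 0.38, n = 3, limma adjusted p = 0.0174). Each rlk7-3 array, up to 4.26, lay below each wild-type array, from 4.87, but the share of all probe sets without overlap here was not counted. This call was lost without wild-type TOLS2 replicate 2 (−1.54, limma adjusted p = 0.0886) or 3 (−1.63, 0.0745) and without rlk7-3 TOLS2 replicate 3 (−1.45, 0.0734). It was also lost without replicate 2 (−1.63, 0.258) or 3 (−1.32, 0.299) of all groups. The puchi-2 response of XTH20 exceeded that of rlk7-3 by 2.12 (95% interval 0.96 to 3.28, limma adjusted p = 0.166), also not called. Of all probe sets 0.383% were called for the rlk7-3 response against wild type, 4.21% for rlk7-3 against wild type with TOLS2, and 0.309% for the puchi-2 response against that of rlk7-3. These comparisons share the same TOLS2 and control arrays.

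For XTH19, the rlk7-3 response differed from that of wild type by 0.25 (95% interval −0.05 to 0.55, limma adjusted p = 0.558) and the puchi-2 response from that of rlk7-3 by −0.40 (−0.70 to −0.10, limma adjusted p = 0.364). With TOLS2 it was 0.26 higher in rlk7-3 than in wild type (0.05 to 0.47, limma adjusted p = 0.159). None of these was called. For XTH18 the rlk7-3 response differed from that of wild type by 0.29 (−0.42 to 1.00) and the puchi-2 response from that of rlk7-3 by −0.20 (−0.91 to 0.51), and its level with TOLS2 was 0.22 higher in rlk7-3 than in wild type (−0.28 to 0.72), none of them called (limma adjusted p from 0.642 to 0.885).

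Between puchi-2 and wild type, no difference was called for any of the 3. The responses differed by 0.35 for XTH20 (95% interval −0.82 to 1.51), −0.15 for XTH19 (−0.45 to 0.14) and 0.09 for XTH18 (−0.62 to 0.80), in a comparison in which limma called 0% of all probe sets (708 had an unadjusted p under 0.05). With TOLS2 the levels differed by 0.54 for XTH20 (−0.28 to 1.36), −0.09 for XTH19 (−0.30 to 0.12) and 0.21 for XTH18 (−0.29 to 0.71), where 0.0744% of probe sets were called. The interval for XTH20 leaves room for a response up to 2.85-fold larger in puchi-2. The XTH20 difference rests on the replicate 1 arrays: without them in all groups, the puchi-2 response was smaller than that of wild type (difference −0.72, limma adjusted p = 0.903).

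XTH19 and XTH20 were also compared in their change within arrays, as the log2 difference of XTH20 minus XTH19, in which a shift shared by both probe sets cancels. The size of this difference has no meaning, its change shows only that the genes changed unequally, and most of that change comes from XTH20 (2.28 in wild type). The genes were chosen with their responses known, so the test below describes these arrays. In wild type this difference was −3.75, −4.17 and −4.07 in control and −2.21, −0.88 and −0.81 with TOLS2. The treated arrays lie above the controls without overlap, and the mean rose by 2.70 (exact permutation test over arrays, two-sided, p = 0.1, n = 3). In puchi-2 it was −4.12, −3.78 and −3.70 in control and 0.24, −1.13 and −1.13 with TOLS2, a rise of 3.20 with no overlap (exact permutation p = 0.1, n = 3). In rlk7-3 it was −3.75, −4.41 and −3.85 in control and −3.01, −3.12 and −3.85 with TOLS2, a change of 0.68 with overlap (exact permutation p = 0.3, n = 3). With 3 against 3 arrays 0.1 is the smallest p this test can give, so it cannot pass 0.05. How often other pairs of genes show no overlap was not counted.

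**Figure D3:**
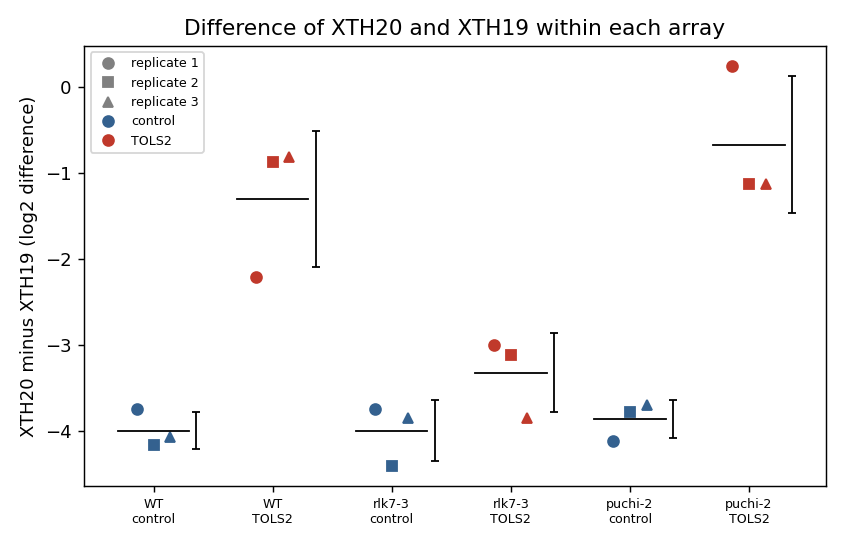
Log2 difference of XTH20 minus XTH19 within each of the 18 arrays, by genotype and treatment, with group means (lines) and 1 SD over 3 arrays (bars). Control arrays of all genotypes lie between −4.41 and −3.70, and with TOLS2 those of wild type and puchi-2 lie between −2.21 and 0.24. In rlk7-3 the TOLS2 arrays run from −3.85 to −3.01.

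Of the other XTH genes, 7 had a 1-gene probe set, so that 10 of the 33 XTH genes in the RefSeq table were measured. XTH20 was the only one of the 10 called as higher with TOLS2, in wild type and in puchi-2, and it was chosen with this rise known. Of all probe sets, 1.15% were called higher in wild type and 0.898% in puchi-2. Among the other 7, 0 were called higher and 2 lower in wild type, XTH33 and XTH21, and again these 2 in puchi-2, beside 0.686% lower of all probe sets in wild type and 0.698% in puchi-2. Their median change was −0.05 in wild type, 0.01 in rlk7-3 and −0.09 in puchi-2, beside −0.04, 0.06 and −0.01 over all probe sets.

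XTH33 fell in wild type from 7.65 ± 0.11 to 6.71 ± 0.11 (SD, n = 3, change −0.94, limma adjusted p = 0.00041) and in puchi-2 from 7.69 ± 0.17 to 6.65 ± 0.24 (−1.04, limma adjusted p = 0.000224). In rlk7-3 it read 7.99 ± 0.10 and 7.63 ± 0.12 (−0.36, limma adjusted p = 0.497). With TOLS2 it was 0.92 higher in rlk7-3 than in wild type (limma adjusted p = 0.000316), where 4.21% of all probe sets were called. This was the only call among the 7 in a comparison of genotypes. In control XTH33 was 0.34 higher in rlk7-3, which was not called (limma adjusted p = 0.524). The difference of the responses was 0.58 and not called. XTH21 fell from 8.77 ± 0.05 to 8.24 ± 0.16 in wild type (−0.53, limma adjusted p = 0.00955) and from 9.00 ± 0.01 to 8.52 ± 0.15 in puchi-2 (−0.47, limma adjusted p = 0.0241), and read 8.56 ± 0.11 and 8.55 ± 0.15 in rlk7-3. The calls of XTH33 held without any 1 array of the groups compared (limma adjusted p up to 0.00393), but that in wild type was lost without replicate 2 of all groups (0.0695) and that in puchi-2 in the 6 puchi-2 arrays alone (0.0631). That of XTH21 in wild type was lost without TOLS2 replicate 2 (−0.50, limma adjusted p = 0.0563) or 3 (−0.47, 0.0631), and that in puchi-2 without any 1 of the 6 arrays except TOLS2 replicate 2 (limma adjusted p from 0.0528 to 0.104). The XTH21 call in wild type was also lost without replicate 2 (0.376) or 3 (0.192) of all groups and in the wild-type arrays alone (0.0745). In puchi-2 it was lost without replicate 1 (0.0703), 2 (0.258) or 3 (0.308) of all groups, in the puchi-2 arrays alone (0.166) and after centring (0.0541). XTH16, XTH26, XTH27 (listed as EXGT-A3), XTH29 and XTH32 were not called in any comparison, and their changes with TOLS2 in wild type ran from −0.17 for XTH32 to 0.35 for XTH29.

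**Figure D4:**
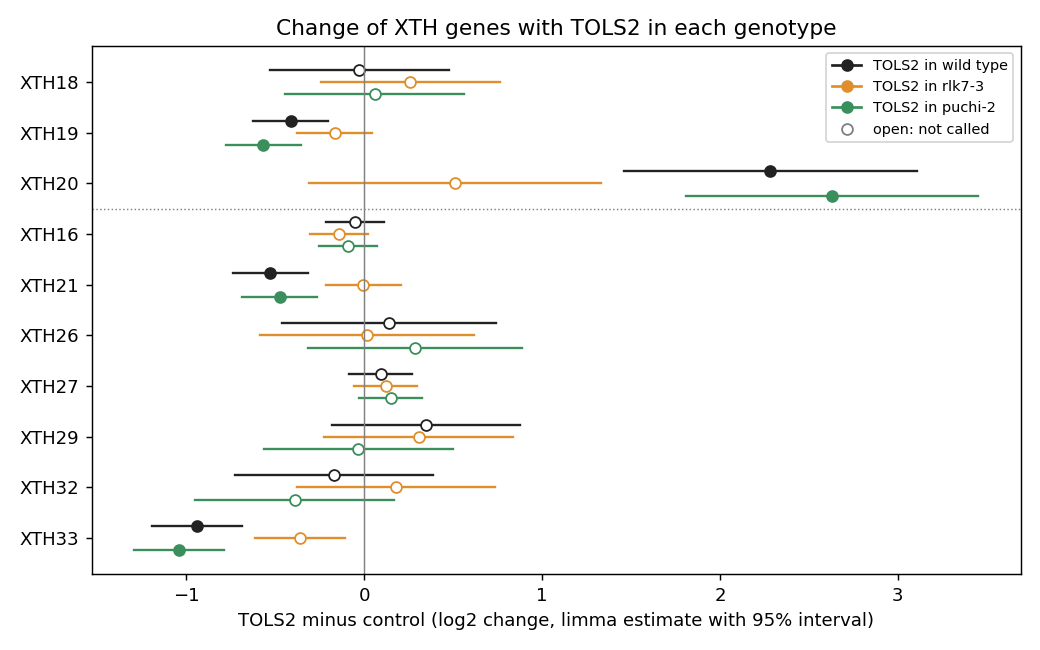
Change with TOLS2 (log2, limma estimate with 95% interval) of the 10 measured XTH genes in wild type, rlk7-3 and puchi-2, with filled points where the change was called and open points where it was not. XTH20 alone is called to the right of 0, and XTH19, XTH21 and XTH33 are called to its left, in wild type and puchi-2, while all rlk7-3 points are open.

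Other genes of xyloglucan and of wall loosening were counted next. Xyloglucan backbones are made by glucan synthases of the CSLC family, of which CSLC4, CSLC5, CSLC6 and CSLC12 were the 4 measured members of a list of 17 genes for xyloglucan synthesis and trimming. None of them was called in any of the 10 comparisons, and their changes with TOLS2 in wild type ran from −0.18 for CSLC6 to 0.36 for CSLC12. Expansins loosen the contact between wall polymers without cutting them. Of 23 measured of 36 genes, 1 rose and 1 fell in wild type, beside 1.15% higher and 0.686% lower of all probe sets: EXPA4 rose by 0.59, from 7.93 ± 0.08 to 8.52 ± 0.08 (SD, n = 3, limma adjusted p = 0.00664), and EXLA2 fell by 0.77, from 6.90 ± 0.15 to 6.13 ± 0.16 (limma adjusted p = 0.00566). In puchi-2 EXLA2 fell by 0.83 (limma adjusted p = 0.00432), whereas EXPA4 changed by 0.29 and was not called. There 0.898% of all probe sets were called higher and 0.698% lower. In rlk7-3, where 0.00572% of all probe sets were called with TOLS2, none of the 23 was. Between rlk7-3 and wild type with TOLS2, 4.21% of all probe sets were called. There EXPA4 was lower in rlk7-3 than in wild type (−0.48, limma adjusted p = 0.0173) and EXLA2 higher (0.64, limma adjusted p = 0.0123). The first of these calls was lost without wild-type TOLS2 replicate 2 (limma adjusted p = 0.0851) or 3 (0.0514) or rlk7-3 TOLS2 replicate 2 (0.0688) or 3 (0.0566), and the second without wild-type TOLS2 replicate 2 (0.0653) or 3 (0.056) or rlk7-3 TOLS2 replicate 1 (0.0577). The changes of EXPA4 and EXLA2 with TOLS2 held without any 1 array (limma adjusted p up to 0.043). In wild type they were lost without replicate 2 of all groups (0.234 for EXPA4 and 0.24 for EXLA2) or replicate 3 (0.183 and 0.101), and that of EXLA2 in puchi-2 without replicate 2 (0.186) or 3 (0.109) and in the 6 puchi-2 arrays alone (0.0998). The median change of expansins was 0.06 in wild type. EXPA7 and EXPA18, expansin genes of root hairs and the 2 measured of 13 root hair genes, changed by 0.07 and 0.09 in wild type, 0.09 and 0.09 in rlk7-3 and 0.23 and 0.21 in puchi-2, none of them called.

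The neighbours of the 3 genes on the chromosome were examined to 3 positions on either side. Near XTH18 and XTH19, AT4G30250 changed by −0.17, AT4G30310 by −0.05 and AT4G30320 by 0.05 with TOLS2 in wild type. Near XTH20, AT5G48040 changed by −0.01, AT5G48050 by −0.02 and AT5G48060 by −0.06. None of these 6 was called in any genotype.

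The genes whose levels ran most like those of each member were taken by Pearson's r over the 18 arrays among 16541 genes. This is a description, since arrays of a group share their treatment and genotype. For XTH20 they were At17.1 (AT2G01340, r = 0.965), AT1G30760 (r = 0.945) and PRX52, a class III peroxidase gene (r = 0.942). These rose by 1.05, 1.55 and 4.11 in wild type and by 1.06, 1.45 and 4.27 in puchi-2, all called, and changed by 0.23, 0.08 and 0.29 in rlk7-3, none called. For XTH19 they were AT4G36945 (r = 0.933), AT2G47500 (r = 0.925) and AT4G13620 (r = 0.922). AT4G13620 fell by 0.51 in wild type and by 0.55 in puchi-2, both called, and AT4G36945 fell by 0.34 in wild type and had a value of −0.28 in puchi-2 that was not called (limma adjusted p = 0.107), whereas the values of AT2G47500 (−0.16 in wild type and −0.21 in puchi-2) were not called. For XTH18 the highest values were lower, 0.823 for AT2G13720, 0.808 for AT4G17585 and 0.77 for AT5G67630, and none of these genes was called with TOLS2 in any genotype.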

How the data were processed

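RNA of 18 root tip samples was hybridised to single-colour oligonucleotide arrays. The authors deposited log2 levels from RMA, 1 value per probe set and array, per the submitters' processing notes. The sources used here do not give its version, the definition of probe sets or the build. RMA is meant to bring arrays to 1 distribution, though the medians of the deposited arrays still ran from 6.19 to 6.30. RMA also shrinks differences of dim probe sets. Of 38408 rows, 17481 had a gene in the platform's annotation, 16722 of them exactly 1, and were tested with no filter and no pseudocount. Names were updated by Entrez identifier from a RefSeq table (TAIR10.1, 16574 matched), used only for names and gene order. A gene with several probe sets is represented by that of highest mean. The rows of the 3 genes were identical to no other row. Probe sequences were not analysed here, so cross-hybridisation among related XTH transcripts was not tested. Samples were grouped by title. Limma 3.58.1 in R 4.3.3 (lmFit and eBayes, 6 group means, 18 arrays, 12 residual degrees of freedom) gave 10 comparisons. The script was tested on simulated data. XTH20 minus XTH19 was tested by exact permutation. The genes and lists were chosen with earlier results of these data known. Named were the 3 genes, all other measured XTH genes, called members of the other lists, 3 genes most like each member, and measured neighbours. Alternatives were another normalization, centring, variance models, array weights, a block, brighter probe sets only, the whole table, fewer groups, and arrays left out.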

Additional observations from a re-analysis of the deposited data

How the results depend on the processing

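Of 565 alternative values for the 3 genes and XTH20 minus XTH19, 506 kept sign and side of the threshold. Most of the 506 were never called. A call was lost in 26 and gained in 1, and 32 uncalled ones turned sign. Among settings that keep all arrays of a comparison, the XTH19 fall in wild type lost its call after centring of the arrays (−0.40, limma adjusted p = 0.1), over all rows of the table (−0.41, 0.0644) and in the 6 wild-type arrays alone (−0.41, 0.214). In fits of only the groups compared, XTH19 (−0.57) and XTH20 (2.63) in puchi-2 and XTH20 in rlk7-3 against wild type with TOLS2 (−1.76, 0.108) lost theirs; these fits have fewer samples. Array weights turned the puchi-2 minus wild-type response of XTH20 to −0.11 and the rlk7-3 minus wild-type control difference of XTH20 to −0.013. With the replicate number as a block, XTH19 with TOLS2 was called higher in rlk7-3 than in wild type (0.26, adjusted p = 0.0433); the block changed no other call of the 3 genes. Same-numbered control and TOLS2 arrays correlated in their deviations from group means at 0.00351 to 0.267, all positive and over 0.1 in 5 of 9 pairs. Of 18 arrays, 12 correlated best with their own number, out of 3 numbers each. The labels state no pairing, so the main fit did not use the number. Whether it marks samples handled together was not tested. For XTH19, replicate 1 lay above and replicate 3 below the group mean in 6 of 6 groups. In rlk7-3 its TOLS2 array lay below the control array of its number in each case (−0.15, −0.23 and −0.13). With the block this change was not called (limma adjusted p = 0.531). For the other changes the cause was not tested.

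With 1 array or 1 replicate number left out, changes with TOLS2 in wild type ran from −0.16 to 0.051 for XTH18, −0.52 to −0.30 for XTH19 and 1.97 to 2.77 for XTH20, and in puchi-2 from −0.28 to 0.27, −0.62 to −0.53 and 2.06 to 2.93. Without replicate 1, 2 or 3 of all groups XTH19 in puchi-2 was not called (adjusted p = 0.0611, 0.308 and 0.0588), nor XTH20 in puchi-2 without 2 or 3 (0.0818 and 0.0751). The puchi-2 minus wild-type response ran from −0.33 to 0.39 for XTH18 and −0.72 to 0.96 for XTH20, and the puchi-2 minus rlk7-3 response of XTH18 from −0.61 to 0.15. Control differences of rlk7-3 from wild type ran from −0.12 to 0.019 for XTH18, −0.038 to 0.084 for XTH19 and −0.17 to 0.19 for XTH20, and that of puchi-2 from −0.10 to 0.46 for XTH18. With TOLS2, rlk7-3 minus wild type ran from −0.0082 to 0.42 for XTH18 and −2.34 to −1.32 for XTH20, and puchi-2 minus wild type from −0.20 to 0.013 for XTH19 and −0.30 to 1.01 for XTH20. XTH18 and XTH20 were too dim for the filter on mean level and have no value there. Counts over all probe sets ran from 43 to 576 around 321 in wild type, 0 to 16 around 1 in rlk7-3, 34 to 556 around 279 in puchi-2, 6 to 101 around 67 for the rlk7-3 response against wild type, 7 to 88 around 54 for the puchi-2 response against rlk7-3 and 88 to 1164 around 736 for rlk7-3 against wild type with TOLS2. Alternatives for the called genes of the other lists were added after the calls were seen. The number of arrays, 3 per group, limits the precision.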
